A study of Mus musculus with 24 samples.

Results

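Hearts taken 72 h after a sham operation were compared with hearts taken 24 h after the same operation, to describe how cardiac expression differed with time after surgery when no stroke had been induced. The 12 arrays titled as sham operated were chosen from the 24 arrays of the series, 6 at 24 h and 6 at 72 h. The mice were 8 weeks old C57BL/6J animals, total RNA of the heart was hybridised to Affymetrix arrays, and the other 12 arrays came from mice given a stroke of the brain by middle cerebral artery occlusion (MCAO), 6 at each of these times. Both sham groups share strain, age and operation and differ, by their labels, only in the time. No unoperated heart is among these groups, so a level before surgery was not measured. The labels do not give the clock hour of surgery or of collection, so hours elapsed and hour of the day cannot be told apart. They do not state that each array is a separate animal, and the p-values therefore measure the spread between these samples. Levels are deposited log2 values for 24011 named genes, and a difference of 1 on that scale is 2-fold.

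The mammalian circadian clock is a feedback loop of transcription factors that runs in nearly every cell, including the cardiomyocyte. CLOCK or its paralogue NPAS2 pairs with BMAL1, the product of Arntl, and activates the Per and Cry genes, Nr1d1, Nr1d2 and Dbp through E-box sequences, while PER and CRY proteins repress that activation. REV-ERB proteins, encoded by Nr1d1 and Nr1d2, repress Arntl and ROR proteins activate it through a shared response element, and DBP, TEF and HLF carry the rhythm to output genes through D-boxes. In the heart the clock is known to time substrate metabolism and the expression of ion channels.

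Promoters of 4 clock genes with an unadjusted p under 0.05 between the sham groups are shown as examples picked by hand. Each holds a letter pattern of one of these elements, as do promoters of some other clock genes. They are RefSeq sequences of build GRCm38.p6, read 5′ to 3′ on the strand of the gene from 250 bases before to 50 bases after the start of the gene, whose first base counts as 1, and capitals mark the pattern. The Arntl window lies at chr7:113207261-113207560 on the plus strand, with TAGGTCA, the core of the REV-ERB and ROR element, from base 31. The Per3 window lies at chr4:151044616-151044915 on the minus strand, with the D-box TTATGTAA from bases -205 and -158. The Ciart window lies at chr3:95882179-95882478 on the minus strand, with the E-box CACGTG from bases -116, -58 and -44. The Tef window lies at chr15:81802423-81802722 on the plus strand, with the E-box from base -127.
Arntl: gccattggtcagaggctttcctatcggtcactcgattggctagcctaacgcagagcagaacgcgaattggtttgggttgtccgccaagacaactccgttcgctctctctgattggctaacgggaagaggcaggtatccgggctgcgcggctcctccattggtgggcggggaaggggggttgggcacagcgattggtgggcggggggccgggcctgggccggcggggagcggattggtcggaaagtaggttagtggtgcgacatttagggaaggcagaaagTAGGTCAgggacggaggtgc
Per3: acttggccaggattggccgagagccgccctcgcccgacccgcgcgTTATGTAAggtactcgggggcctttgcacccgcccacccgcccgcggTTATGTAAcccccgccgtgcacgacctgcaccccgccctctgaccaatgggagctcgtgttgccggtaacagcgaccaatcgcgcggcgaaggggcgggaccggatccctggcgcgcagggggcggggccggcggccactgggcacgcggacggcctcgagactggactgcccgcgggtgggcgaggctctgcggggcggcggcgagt
Ciart: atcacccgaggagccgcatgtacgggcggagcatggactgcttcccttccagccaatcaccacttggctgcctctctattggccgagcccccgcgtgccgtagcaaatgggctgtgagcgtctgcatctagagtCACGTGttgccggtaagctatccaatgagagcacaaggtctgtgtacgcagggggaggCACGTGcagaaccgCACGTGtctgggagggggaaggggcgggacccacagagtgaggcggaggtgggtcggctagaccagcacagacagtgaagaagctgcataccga
Tef: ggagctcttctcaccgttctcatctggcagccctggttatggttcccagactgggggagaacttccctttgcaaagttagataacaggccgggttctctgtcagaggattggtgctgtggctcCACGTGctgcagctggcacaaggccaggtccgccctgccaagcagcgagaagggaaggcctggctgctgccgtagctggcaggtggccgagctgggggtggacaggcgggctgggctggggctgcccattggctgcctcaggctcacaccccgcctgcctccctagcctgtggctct

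Of the 31 measured genes in a core clock list and a clock output list, 24 had a promoter in the RefSeq table, with 34 promoters in all. Searched on both strands, CACGTG was found in 8 of the 34 promoters, of 7 genes (Bhlhe41, Ciart, Cry1, Klf11, Per1, Tef and Tspan4), and in 7.15% of all 32851 promoters of this length. TTATGTAA was found for Per3 alone among the clock genes and in 0.938% of all promoters. TAGGTCA, which was added after the other patterns, was found for Arntl and Nfil3 and in 2.61% of all promoters. TGACGTCA, the cAMP response element, was found for Hlf and in 1.79%, and GAAACGAAA, the core of the interferon-stimulated response element, for 0 of these genes and in 0.189%. These matches describe the letters of the window and do not show binding.

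The sham arrays correlated closely within their groups. The correlation of an array, over genes, with the mean of the rest of its group ran from 0.985 to 0.997 at 24 h, lowest in replicate 5, and from 0.991 to 0.997 at 72 h, lowest in replicates 3 and 2. All 13 ventricular cardiomyocyte markers lay above 3.97, the level that 95% of the 1365 olfactory and vomeronasal receptor genes stay under, with a median of 12.8. Only 1 of 12 neutrophil, 2 of 8 lung epithelium, 2 of 7 hepatocyte and 1 of 7 thymocyte markers did so. Other lists had larger shares above that level: 5 of 7 brown adipocyte, 5 of 9 adipocyte, 6 of 12 skeletal muscle, 5 of 8 erythroid and 4 of 8 mesothelial markers. The labelled tissue thus carried its defining markers in both groups.

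Across all genes the sham groups differed little. The median log2 difference, 72 h minus 24 h, was -0.0047, 47.6% of genes had a positive value, and the median moderated standard error was 0.0726. Arntl, the gene of BMAL1, was the only gene of 24011 past an adjusted p of 0.05 (limma, Benjamini-Hochberg), which is 0.00416% of genes. At an unadjusted p under 0.05 there were 1618 genes (6.74%), of which 748 (3.12%) had higher means at 72 h and 870 (3.62%) lower ones. That count was 885, or 3.69% of genes, with all 24 arrays in the fit, and over all the alternatives run the share lay between 3.69% and 8.56%. The 6 arrays of one time did not overlap the 6 of the other for 104 genes (0.433%), 45 of them higher at 72 h (0.187%) and 59 lower (0.246%). Means differed at least 2-fold for 12 genes (0.05%): Dbp, Sln, Hamp, Myl7, Inmt, Per3 and Gadd45b were higher at 72 h, and Arntl, Lcn2, Angptl4, Scd4 and Pdk4 lower. Only Dbp, Arntl and Lcn2 stayed past 2-fold with each array left out in turn, and without 72 h replicate 6 the log2 differences of Sln, Hamp, Myl7 and Inmt were 0.60, 0.58, 0.69 and 0.77. Of these 12, Arntl, Dbp, Per3 and Pdk4 belong to the clock lists, and 3 of the 4 genes with the smallest p (Arntl, Dbp and Npas2) do.

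**Figure D1:**
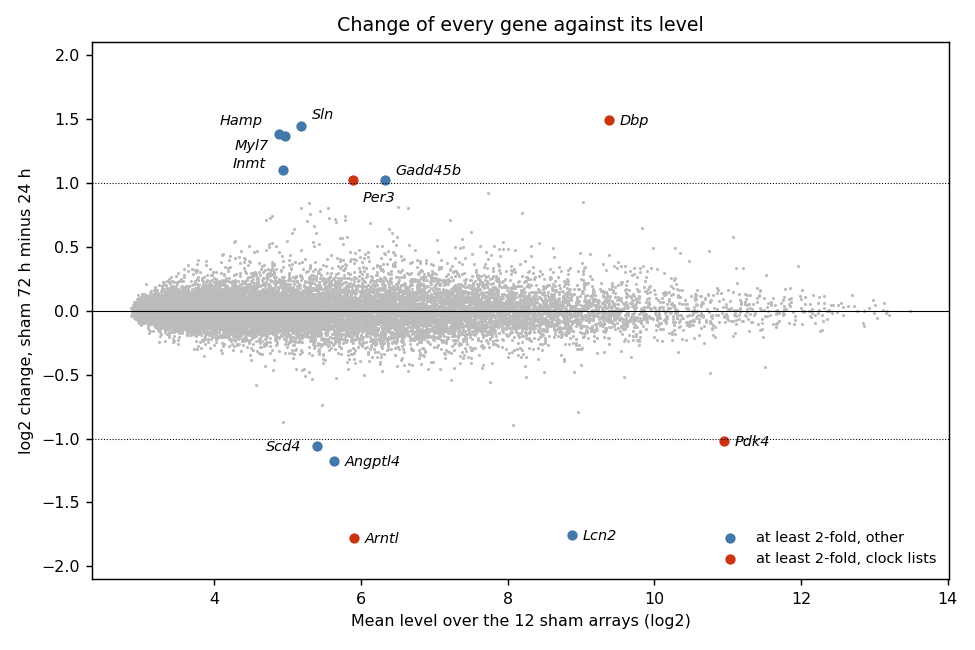
Log2 difference, sham 72 h minus sham 24 h, of each of the 24011 genes (vertical axis) against its mean log2 level over the 12 sham arrays (horizontal axis). The dotted lines mark a 2-fold difference, which 12 genes pass, and the red points are the 4 of them in the clock lists.

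Arntl, the activator partner of CLOCK and NPAS2, fell between 24 h and 72 h. In the 24 h group its log2 level was 6.42 at the lowest, 6.88 at the median and 7.12 at the highest, and in the 72 h group 4.39, 4.95 and 5.78. All 6 arrays at 72 h thus lay below all 6 at 24 h, and replicates 1 and 2 were the highest of the 72 h group. The log2 change was -1.78 (SE 0.20), a 3.42-fold lower level seen in 6 of 6 arrays at 72 h, with an unadjusted p of 9.6e-07 and an adjusted p of 0.0231 (limma). With each array left out in turn the log2 change stayed between -1.93 and -1.65, and the adjusted p ran from 0.00233 to 0.117. It was above 0.05 without 24 h replicate 1, 2, 4 or 6 and without 72 h replicate 2, 3, 4 or 5, and below it without any of the other 4.

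Both partners of BMAL1 had lower means at 72 h without passing the adjusted threshold. Npas2 had 4.79, 5.45 and 5.76 as lowest, median and highest level at 24 h and 4.39, 4.50 and 4.66 at 72 h. The groups did not overlap, and 24 h replicate 5, the array that correlated least with its group, was the lowest of the 24 h arrays. The log2 difference was -0.87 (SE 0.13), 1.83-fold, with an adjusted p of 0.0804 (limma), and without 24 h replicate 5 it was -0.99 with an adjusted p of 0.000950. With any of the other 11 arrays left out the adjusted p was above 0.05, and at most 0.247. Clock itself had 9.20, 9.46 and 9.69 at 24 h and 8.87, 9.12 and 9.51 at 72 h. Its groups overlapped, 72 h replicates 1 and 2 again being the highest of their group, and the log2 difference was -0.32 (SE 0.13, adjusted p = 0.691).

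The period genes, whose products repress BMAL1 complexes, lay on the other side. Per3 had 4.85, 5.41 and 5.87 as lowest, median and highest level at 24 h and 5.92, 6.52 and 6.80 at 72 h, a log2 difference of 1.02 (SE 0.19, adjusted p = 0.257). Per2 had 4.59, 4.74 and 5.28 at 24 h and 5.22, 5.79 and 6.09 at 72 h, a difference of 0.84 (SE 0.18, adjusted p = 0.338). The Per3 groups did not overlap, those of Per2 did by a narrow margin, and 72 h replicates 1 and 2 had the lowest values of their group for both genes. Per1, which also responds to hormones and stress, had 6.63, 7.62 and 8.49 at 24 h and 7.46, 8.04 and 8.71 at 72 h, with a difference of 0.51 (SE 0.28, adjusted p = 0.802) smaller than the range within either group.

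Of the other repressors of the loop, Cry2 had a log2 difference of 0.46 (SE 0.13) and Cry1 one of 0.11 (SE 0.08) with adjusted p-values of 0.530 and 0.865. Ciart, which encodes a circadian repressor and is also called Chrono, ran from 4.79 to 5.39 at 24 h and from 5.19 to 6.74 at 72 h, with a difference of 0.78 (SE 0.21, adjusted p = 0.526). Bhlhe41 and Bhlhe40, which encode the repressors DEC2 and DEC1, differed by 0.46 (SE 0.14) and 0.25 (SE 0.12). For Cry2, Ciart, Bhlhe41 and Bhlhe40 all 6 arrays at 72 h lay above the 24 h mean, although the groups overlapped.

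In the stabilising loop, Nr1d2 ran from 8.67 to 9.28 at 24 h and from 9.20 to 9.62 at 72 h, a log2 difference of 0.44 (SE 0.10, adjusted p = 0.338). Nr1d1 differed by 0.25 (SE 0.12) with overlapping groups, and its 72 h levels ran from 9.99 to 10.7. Rora, a ROR receptor that activates Arntl, differed by 0.00 (SE 0.11). Csnk1d and Csnk1e, the casein kinases that phosphorylate PER proteins, differed by 0.02 (SE 0.09) and -0.07 (SE 0.10). The signs for Rora and Csnk1d turned when single arrays were left out.

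**Figure D2:**
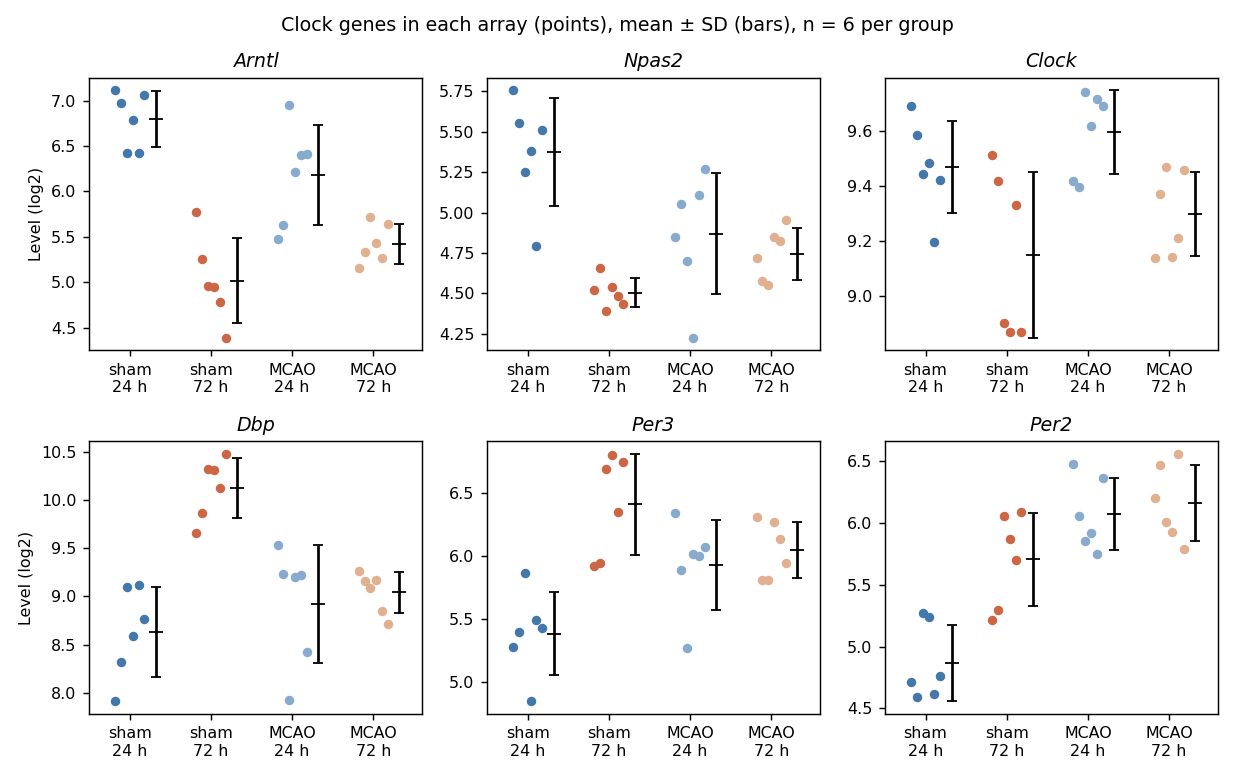
Log2 level (vertical axes, not starting at 0) of Arntl, Npas2, Clock, Dbp, Per3 and Per2 in each array, with points for arrays and bars for mean ± SD, n = 6 per group. In sham hearts the 72 h points lie below all 24 h points for Arntl and Npas2 and above all of them for Dbp and Per3, while the MCAO groups overlap for all 6 genes.

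Among outputs of the clock the PAR bZIP factors, which bind D-boxes, had higher means at 72 h. Dbp had 7.91, 8.68 and 9.12 as lowest, median and highest level at 24 h and 9.66, 10.2 and 10.5 at 72 h. No array of one group reached the other, and replicates 1 and 2 were the lowest of both groups. The log2 difference was 1.50 (SE 0.20), 2.82-fold, seen in 6 of 6 arrays at 72 h, with an adjusted p of 0.0726 (limma) that misses the threshold. With single arrays left out it ran from 0.0275 to 0.247, and it was under 0.05 only without 24 h replicate 5 or 72 h replicate 1.

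The other two PAR bZIP genes gave smaller values. Hlf ran from 5.63 to 5.88 at 24 h and from 5.98 to 6.71 at 72 h, a difference of 0.47 (SE 0.10, adjusted p = 0.338) without overlap. Tef ran from 5.16 to 5.82 and from 5.55 to 6.48, a difference of 0.58 (SE 0.16, adjusted p = 0.520) with overlap. Timp3, an inhibitor of metalloproteinases, had a median of 9.52 at 24 h and 10.1 at 72 h, a difference of 0.65 (SE 0.14) without overlap. Usp2, a ubiquitin-specific protease, differed by 0.35 (SE 0.10).

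Pdk4 encodes the kinase that shuts pyruvate dehydrogenase when fat is burned, and was the clock output gene with the lowest difference. It had 10.6, 11.6 and 12.1 as lowest, median and highest level at 24 h and 9.79, 10.2 and 11.5 at 72 h. The groups overlapped, since 24 h replicates 1 and 2 were low in their group and 72 h replicates 1 and 2 high in theirs. The log2 difference was -1.02 (SE 0.32, adjusted p = 0.556).

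Counted over both lists, 17 of 31 clock genes had an unadjusted p under 0.05, or 54.8% against 6.74% of all genes, 13 with higher and 4 with lower means at 72 h. The core list held 9 of 16 such genes, with a median difference of 0.25, and the output list 8 of 15, with a median of 0.13. Groups without overlap numbered 6 of 31 (Dbp, Hlf, Per3 and Timp3 higher, Arntl and Npas2 lower), beside 0.433% of all genes. Of the 50 genes with the smallest p, 8 were clock genes. With other settings or arrays left out the 17 became 14 to 19, and 14 was the count without 72 h replicate 4. These lists were drawn up with results of these data known, so the counts are a description.

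**Figure D3:**
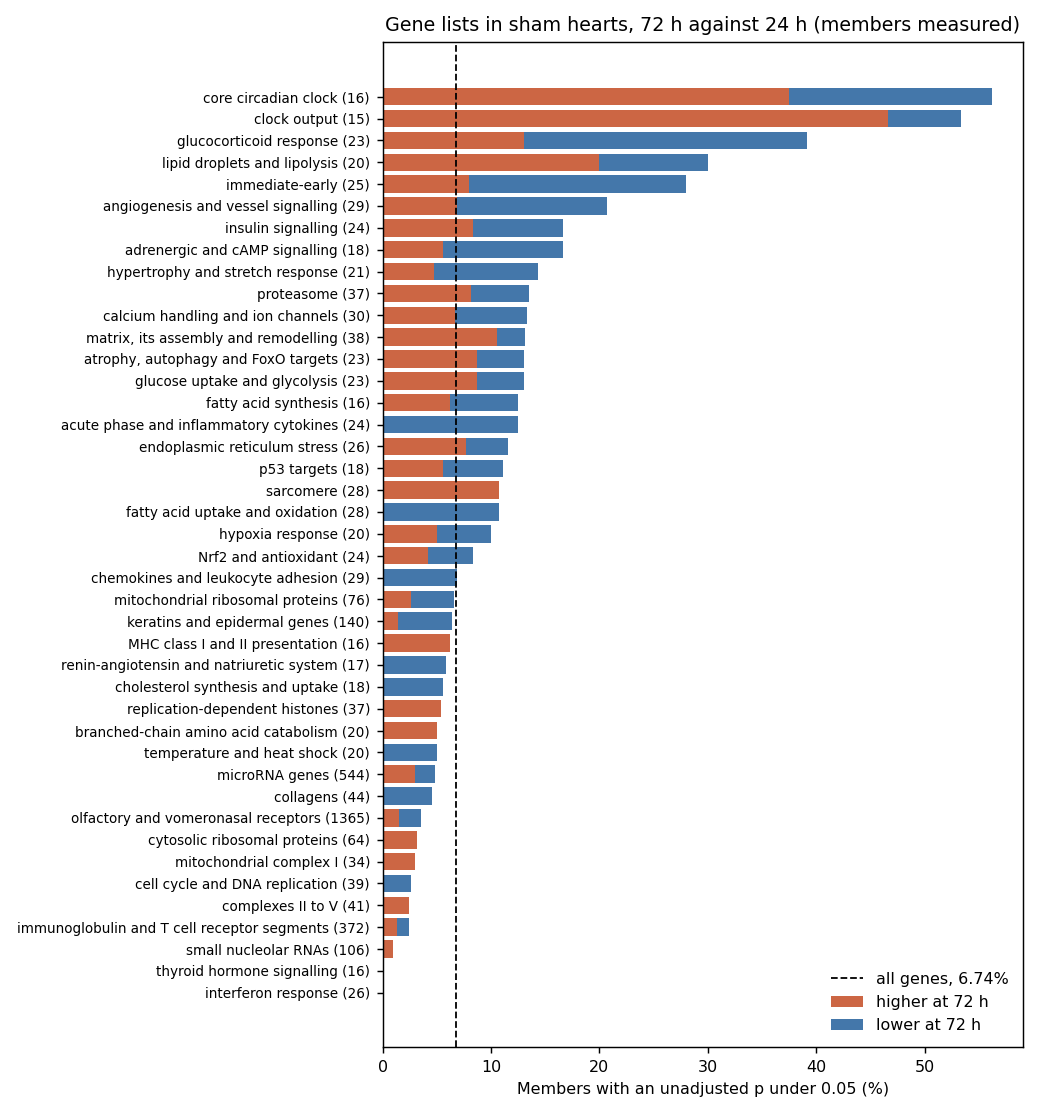
Share (horizontal axis, percent) of the measured members of each list drawn with an unadjusted p under 0.05 between the sham groups. Bars are split into higher and lower means at 72 h, and brackets give the number of measured members. The 21 cell type lists are not drawn. The smallest process lists, ketone body metabolism (2 of 6, 33.3%), metallothioneins and complement, are also left out. The dashed line is the 6.74% of all genes, and the core clock (56.2%) and clock output (53.3%) lists have the longest bars.

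The same 2 times in MCAO hearts share no array with the sham groups. The change of Arntl there was -0.76 (SE 0.21), and the difference between the MCAO and sham changes was 1.02 (SE 0.31, adjusted p = 0.0847, limma on all 24 arrays). For Dbp the MCAO difference was 0.12 (SE 0.23), and the MCAO change minus the sham change was -1.38 (SE 0.33), which passed the threshold with an adjusted p of 0.0330. That p ranged from 0.00975 to 0.0612 with single arrays left out. It was above 0.05 without MCAO 72 h replicate 3, 5 or 6, without sham 24 h replicate 1 or 4, and without sham 72 h replicate 4 or 6. The test called 430 genes in all (1.79%), and Dbp was the only one of the 31 clock genes among them.

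For the other clock genes the difference between operations missed the threshold. Npas2 had -0.12 (SE 0.15) in MCAO hearts, with an adjusted p of 0.0596 for the difference from sham. Per3 had 0.12 (SE 0.16) and an adjusted p of 0.0667, Per2 had 0.09 (SE 0.16) and 0.112, and Cry2 had -0.24 (SE 0.13) and 0.0633. Tef and Clock had values of the same sign under both operations, 0.60 (SE 0.16) against 0.58 for Tef and -0.30 (SE 0.09) against -0.32 for Clock. The difference between operations was 0.02 (SE 0.23) for Tef and 0.02 (SE 0.16) for Clock. Of all 31 clock genes, 17 had the same sign under both operations. Among the 17 clock genes with an unadjusted p under 0.05 in sham hearts, 13 had the same sign in MCAO hearts. A smaller absolute change in MCAO hearts was found for 15 of them, which were picked by their sham values.

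**Figure D4:**
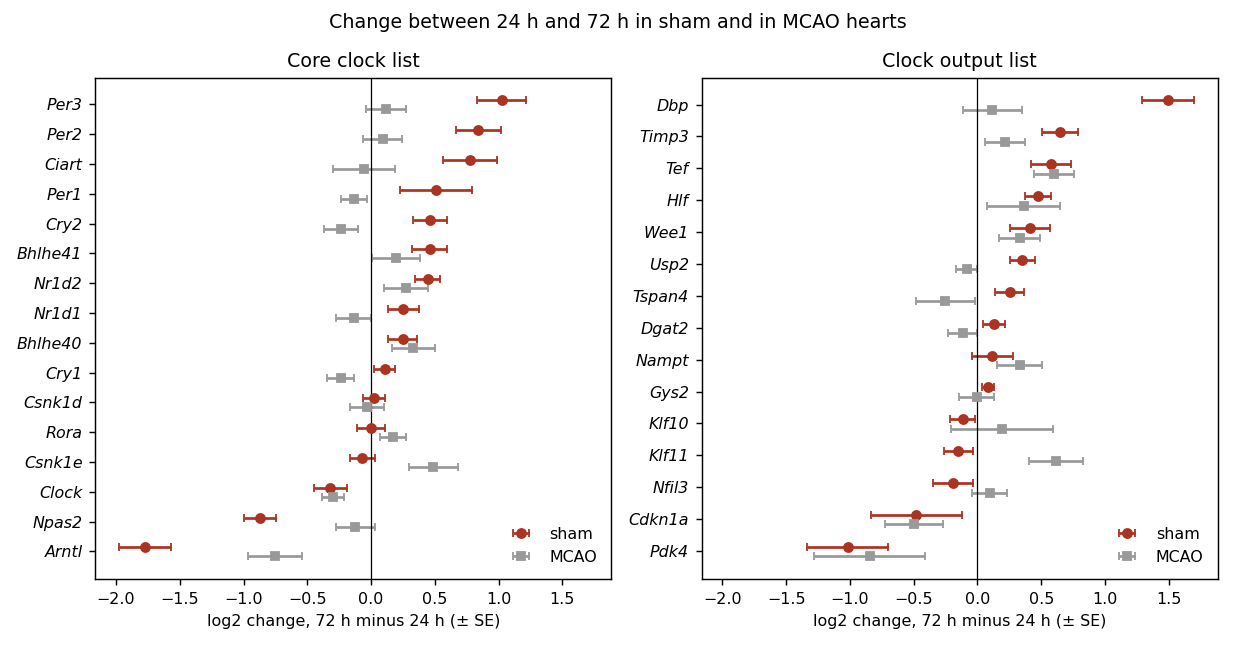
Log2 difference, 72 h minus 24 h, with its standard error (horizontal axes), for the measured members of the core clock list and the clock output list in sham hearts (red circles) and MCAO hearts (grey squares), n = 6 per group. Dbp has 1.50 in sham and 0.12 in MCAO hearts, and Arntl -1.78 and -0.76.

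Outside the clock lists, no gene passed the adjusted threshold, and the values below are given as measured. Lcn2, which encodes lipocalin 2, a protein of the acute phase that binds siderophores, had 9.02, 9.46 and 10.8 as lowest, median and highest level at 24 h and 7.28, 8.08 and 8.93 at 72 h. The groups did not overlap, but each spread widely, with 24 h replicates 1 and 4 and 72 h replicate 1 high in their groups. The log2 difference was -1.75 (SE 0.35, adjusted p = 0.292), 3.37-fold. Among 24 acute phase and cytokine genes 3 (12.5%, against 6.74% of all genes) had an unadjusted p under 0.05: Lcn2, Stat3 at -0.23 (SE 0.09) and Saa3 at -0.13 (SE 0.06). Every sham value of Saa3 lay between 3.53 and 3.86, under the level of 3.97 that 95% of the receptor genes stay under.

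Genes that glucocorticoids are known to regulate differed in both directions. Of 23 measured members 9 (39.1%, against 6.74% of all genes) had an unadjusted p under 0.05, 3 higher and 6 lower at 72 h. The list's median was -0.0384 and turned sign without 24 h replicate 1 (0.00658), without 24 h replicate 5 (0.00693), without 72 h replicate 3 (0.0636) and without both of the last 2 (0.0764). Zbtb16, a zinc finger repressor, differed by 0.85 (SE 0.25), and Arrdc2, an arrestin family gene, by 0.74 (SE 0.22), both with overlap. Angptl4, an inhibitor of lipoprotein lipase, ran from 5.12 to 7.20 at 24 h and from 4.53 to 5.97 at 72 h, a difference of -1.18 (SE 0.37, adjusted p = 0.556). Errfi1, a feedback inhibitor of the EGF receptor, differed by -0.45 (SE 0.13) and the kinase gene Sgk1 by -0.37 (SE 0.11). Pdk4 and Lcn2 also belong to this list, and Pdk4 to the clock output list.

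Immediate-early genes, which respond within minutes to stimulation, held 7 of 25 (28%, against 6.74% of all genes) with an unadjusted p under 0.05, 2 higher and 5 lower at 72 h. With 1 array left out the count was 4 to 6, and it was 4 without 24 h replicate 2, 3 or 6 and without 72 h replicate 2 or 3. Nr4a3, an orphan nuclear receptor, differed by 0.47 (SE 0.19) and Ier3, an early response gene, by 0.34 (SE 0.15). Fosl2, an AP-1 subunit, differed by -0.29 (SE 0.09), Klf2 by -0.35 (SE 0.13), Klf4 by -0.39 (SE 0.15) and Btg2, an antiproliferative gene, by -0.45 (SE 0.20). For these last 4 genes all 6 arrays at 72 h lay below the 24 h mean, and the groups overlapped. The median of the list was -0.0371, and without 24 h replicate 5 it was 0.00135.

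Genes of lipid use had mostly small differences. In the list of fatty acid uptake and oxidation 21 of 28 values were negative and 7 positive, where 47.6% of all genes were positive. The median was -0.09. Angptl4 and Pdk4, both also counted in the glucocorticoid list, and Eci2, an enoyl-CoA isomerase at -0.22 (SE 0.08), had an unadjusted p under 0.05. They were 3 of the 28 genes (10.7%, against 6.74% of all genes). Over the alternatives that number lay between 2, with all 24 arrays in the fit, and 6. Scd4, a stearoyl-CoA desaturase, ran from 4.73 to 7.26 at 24 h and from 4.40 to 5.20 at 72 h, a log2 difference of -1.06 (SE 0.37, adjusted p = 0.624). The 72 h arrays lay close together, and 24 h replicates 3 and 4 stood above the rest of theirs. Mlxipl, which encodes the glucose-responsive factor ChREBP, differed by 0.56 (SE 0.15). In the lipid droplet and lipolysis list 6 of 20 (30%, against 6.74% of all genes) had an unadjusted p under 0.05, 4 higher and 2 lower at 72 h. The lower ones were Mgll, the monoglyceride lipase, at -0.20 (SE 0.07) and Gpd1, a glycerol phosphate dehydrogenase, at -0.43 (SE 0.17). The higher ones were the lipid droplet coat genes Plin3 at 0.29 (SE 0.13) and Plin4 at 0.19 (SE 0.09), the droplet protein gene Cidec at 0.28 (SE 0.13) and Lpin1, a phosphatidate phosphatase, at 0.20 (SE 0.09). The count was 2 with all 24 arrays in the fit and 3 with dim genes left out. With 1 array left out it ran from 2 to 8: it was 2 or 3 without 24 h replicate 2, 4 or 6 and without 72 h replicate 3, 4, 5 or 6, and 4 without 24 h replicate 3 or 72 h replicate 1. The 24 h values of Cidec, 3.48 to 3.89, lay under the level of 3.97 that 95% of the receptor genes stay under.

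Single genes with separated groups came from several other lists. Gadd45b, a stress-inducible gene, had 5.51, 5.78 and 6.13 as lowest, median and highest level at 24 h and 6.33, 6.86 and 7.35 at 72 h. No array overlapped, and the log2 difference was 1.02 (SE 0.17, adjusted p = 0.127). Ces1d, a carboxylesterase, differed by 0.92 (SE 0.16, adjusted p = 0.160), and Herpud1, a gene of the endoplasmic reticulum stress response, by 0.46 (SE 0.09, adjusted p = 0.292), both without overlap. Col5a3, a fibrillar collagen chain, differed by -0.47 (SE 0.11) without overlap, while the 44 collagens had a median of -0.04.

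Gja1 encodes connexin 43, the main gap junction protein between ventricular cardiomyocytes. Its level ran from 10.9 to 11.2 at 24 h and from 10.4 to 10.7 at 72 h, with no overlap. The log2 difference was -0.48 (SE 0.08, adjusted p = 0.127), and in MCAO hearts it was 0.24 (SE 0.13). The difference between operations, 0.72 (SE 0.16), passed the threshold with an adjusted p of 0.0218 and did so in all 27 alternatives run. Pde4b, a phosphodiesterase that breaks down cAMP, had -0.23 (SE 0.07) in sham and 0.32 (SE 0.08) in MCAO hearts, a difference of 0.56 (SE 0.11) with an adjusted p of 0.0100.

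Among other contractile, channel and signalling genes, Tcap, the titin cap protein, ran from 10.2 to 11.2 at 24 h and from 11.0 to 11.8 at 72 h, a difference of 0.57 (SE 0.17, adjusted p = 0.530). Adcy6, a cardiac adenylyl cyclase, differed by 0.31 (SE 0.07) and Adra1b, an alpha-1 adrenergic receptor, by -0.33 (SE 0.08). Each had all 6 arrays at 72 h on one side of the 24 h mean. Kcnh2, Kcnip2 and Scn4b, which encode channel subunits, differed by 0.23 (SE 0.08), 0.27 (SE 0.11) and -0.38 (SE 0.15). Igfbp3, an IGF binding protein, differed by 0.64 (SE 0.17) and Irs1, an insulin receptor substrate, by -0.36 (SE 0.13).

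**Figure D5:**
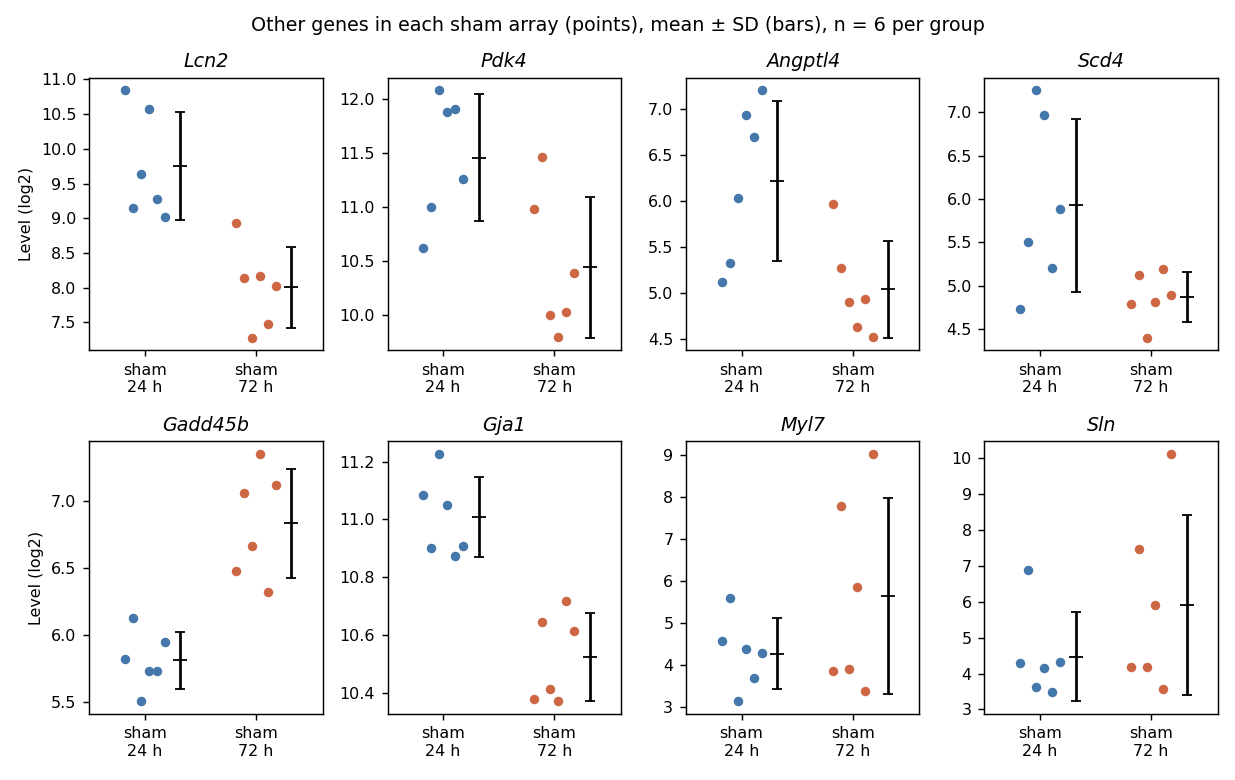
Log2 level (vertical axes, not starting at 0) of 8 genes outside the core clock in each sham array, with points for arrays and bars for mean ± SD, n = 6 per group. Lcn2, Gadd45b and Gja1 have groups that do not overlap, while the Myl7 and Sln values at 72 h spread from under 4 to above 9.

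Of the genes with the smallest p some belong to no described list and were chosen after their values were seen. Slc41a3, a magnesium transporter family gene, ran from 8.38 to 8.68 at 24 h and from 7.24 to 8.02 at 72 h, a log2 difference of -0.89 (SE 0.13, adjusted p = 0.0726). Epha4, an ephrin receptor, differed by -0.56 (SE 0.09, adjusted p = 0.119), Aatf, a transcriptional cofactor, by 0.34 (SE 0.05, adjusted p = 0.119), and Spon2, a secreted matrix protein, by -0.58 (SE 0.10, adjusted p = 0.160). Adam19, a membrane metalloproteinase, differed by -0.48 (SE 0.08, adjusted p = 0.160). None of these 5 genes had overlapping groups. Adam19 had 0.52 (SE 0.14) in MCAO hearts, and the difference between operations was 0.99 (SE 0.17) with an adjusted p of 0.00713.

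Atrial genes spread widely among the 72 h arrays. Myl7, the atrial regulatory light chain, had 3.13, 4.33 and 5.60 as lowest, median and highest level at 24 h and 3.37, 4.89 and 9.04 at 72 h, a log2 difference of 1.37 (SE 0.90). Sln, which encodes sarcolipin, and Hamp, the hepcidin gene, were named after their values were seen and differed by 1.45 (SE 1.01) and 1.38 (SE 1.03). With 1 array left out the differences ran from 0.69 to 1.82 for Myl7, from 0.60 to 1.93 for Sln and from 0.58 to 1.85 for Hamp, lowest without 72 h replicate 6. For all 3 the highest of the 72 h arrays were replicates 6, 2 and 4, and 3 of 6 arrays at 72 h lay below the 24 h mean. Replicate 2 was the highest of the 24 h arrays for Myl7 (5.60), Sln (6.89) and Hamp (5.65), and for Sln it lay above 72 h replicate 4 (5.92). The mean over the 10 atrial markers ran from 5.80 to 6.64 at 24 h and from 5.96 to 7.91 at 72 h, with 7.91 in replicate 6 and 7.20 in replicate 2, while the 13 ventricular markers ran from 12.5 to 12.6 and from 12.5 to 12.7. In whole-heart RNA, more cells of a type and more RNA per cell cannot be told apart. Of the 10 atrial markers 9 had a positive difference and 1 a negative one. Nr2f2, Dkk3 and Stard10, also of this list, differed by 0.29, 0.70 and 0.56. An unadjusted p under 0.05 was held by 3 of 10 atrial markers (30%, against 6.74% of all genes), with neither Myl7 nor Sln among them. The number was 1 of 10 without 72 h replicate 6 (5.41% of all genes) and with all 24 arrays in the fit (3.69%). It was 2 of 10 with array weights, without 24 h replicate 3, 4 or 5, and without 72 h replicate 2 or 4.

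A single 72 h array, replicate 2, stood above the others in several tissue and immune lists. Its mean over 26 interferon response genes was 5.99 against 4.99 to 5.16 in the other 5, and over 15 macrophage markers 7.05 against 6.26 to 6.63. Between the groups 0 of the 26 interferon genes had an unadjusted p under 0.05, and the list's median was 0.09, and -0.00903 without replicate 2. Of the 15 macrophage markers 1 (6.67%, against 6.74% of all genes) had an unadjusted p under 0.05, Cd163 with a difference of 0.31 (SE 0.11). Without replicate 2, 17 of the 31 clock genes still had an unadjusted p under 0.05, and the log2 change of Arntl was -1.82 with an adjusted p of 0.0592.

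Several further lists had a smaller share than the 6.74% of all genes. Of 39 cell cycle genes 1 had an unadjusted p under 0.05, of 44 collagens 2, of 64 cytosolic ribosomal protein genes 2 and of 34 complex I genes 1. The complex I genes were positive in 31 of 34 cases with a median of 0.06, and those of complexes II to V in 34 of 41 with a median of 0.09. With 1 array left out these medians ran from 0.0146 to 0.124 and from 0.0334 to 0.116. Thyroid hormone signalling genes gave 0 of 16, and the 1365 olfactory and vomeronasal receptor genes 48, with a median of -0.01.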

How the data were processed

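Heart RNA was extracted with Trizol and biotin-labelled for Affymetrix arrays, per the labels' protocols. The log2 values deposited by the authors cover 24973 gene identifiers in 24 arrays, with 0 missing values, and run from 2.78 to 13.5. The log2 scale and a quantile normalization by the authors were judged from the values. How probes were summarized is not given in the sources used here; per the submitters' processing notes HOMER was used, with no version or role named. Array intensities and background were not analysed here, so no detection limit is given and the number of arrays limits the precision. Groups came from titles, source names and time labels (1 and 3 days). The free text of the 72 h sham samples names 24 h and was not followed.

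The platform annotation gave 1 symbol to 24015 identifiers and none to 958. For 4 symbols with several identifiers the brightest was kept, which left 24011 genes. The sham contrast was fitted with limma 3.58.1 under R 4.3.3 (12 arrays, 2 group means, lmFit, eBayes with its default prior) with Benjamini-Hochberg adjustment over all genes. The difference from MCAO used all 24 arrays. The fit was tested on simulated data. Lists are described by counts and medians, with no test. Members, lists and rules were chosen with earlier results of these data known. The rule named every core clock gene and for each list described up to 6 members of smallest p, and up to 12 called genes in each direction. Same-numbered sham arrays deviated from their group means with correlations from -0.229 to 0.151, and 0 of 12 correlated best with their own number, so the numbers were not taken as pairs. Alternatives were other priors, scalings, filters, identifier rules, array weights, a replicate block, all 24 arrays, and leaving out each array. A fit that left out replicate 5 of sham 24 h together with replicate 3 of sham 72 h was chosen after seeing the data.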

Additional observations from a re-analysis of the deposited data

Results flagged for a closer look

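Among 168 gene and group pairs tested with Dixon's criterion (0.625 for 6 arrays), 11 had an array far from the rest of its group, and chance alone gives about 1 in 20. At 24 h the distant arrays were replicate 1 for Pde4b (5.19, lowest), replicate 2 for Sln (6.89, highest), replicate 4 for Ces1d (6.77, lowest), for Fbln1, a matrix gene (8.20, lowest), and for Nr4a3 (4.50, highest), and replicate 5 for Col5a3 (5.94, highest) and Col4a5, a basement membrane collagen chain (5.62, highest). At 72 h they were replicate 2 for Mlxipl (7.31, lowest), replicate 4 for Adam19 (4.77, lowest), and replicate 6 for Hlf (6.71, highest) and Inmt (7.12, highest). Of these genes none had passed the adjusted threshold in the sham comparison.

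The change between 24 h and 72 h differed between the operations for 6 of the 84 genes named. The test of the difference used all 24 arrays and an adjusted p under 0.05 (limma), and called 430 of 24011 genes (1.79%). Many of the 84 were named for a small p in the sham comparison, whose arrays also enter this test. The MCAO change minus the sham change was -1.38 for Dbp, 0.72 for Gja1, 0.56 for Pde4b, 0.99 for Adam19, -0.80 for Plin3 and -1.46 for Nr4a3. For Gja1, Pde4b, Adam19 and Nr4a3 it passed in all 27 alternatives, for Dbp in 19 of 27 and for Plin3 in 25, the other 2 being without replicate 4 of either sham group. The MCAO 24 h arrays had a median SD over genes of 0.218, against 0.130 for sham 24 h, 0.114 for sham 72 h and 0.105 for MCAO 72 h. The part of this spread in the differences was not tested.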

How the results depend on the processing

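Arntl kept its negative sign in all 22 alternatives and passed the adjusted threshold in 13 of them. The count of called genes, 1 (0 higher, 1 lower), was 5 (2 higher, 3 lower) with all 24 arrays in the fit, with a trended and robust prior and with dim genes left out, 3 (1 higher, 2 lower) with array weights and 3 (1 higher, 2 lower) without the 2 arrays that stood apart, an alternative chosen after seeing the data. With a replicate block, fitted although the numbers were not taken as pairs, it was 1 (1 higher, 0 lower): Dbp was called and Arntl had an adjusted p of 0.0590. With 1 array left out it ran from 0 to 4 (0 to 2 higher, 0 to 2 lower). The 430 genes whose change differed between operations became 197 to 1012 with 1 array left out, and the count lay within 1.5 times of 430 under the other 3 alternatives. Of 1845 values of the 84 named genes in the sham comparison 14 changed sign, all of Rora or Csnk1d: with 1 array left out Rora ran from -0.0397 to 0.0745 and Csnk1d from -0.0107 to 0.0684, and without the 2 arrays Rora was -0.0471. Differences between operations changed sign with 1 array left out for Tef (-0.0881 to 0.16), Hlf (-0.41 to 0.0175), Clock (-0.0351 to 0.0938) and Pdk4 (-0.0167 to 0.60), and for Tef with array weights (-0.13). The cause was not tested. Array background was not analysed here, so which low values lie above detection is unknown.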

Other observations

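Genes of the vessel wall, stroma and hormone signalling gave values not described above, none past the adjusted threshold. Thbs2, a matricellular protein of fibroblasts, differed by 0.61 (SE 0.19) between 24 h and 72 h in sham hearts and by 0.81 (SE 0.15) in MCAO hearts. Dcn, the proteoglycan decorin, differed by 0.17 (SE 0.07) and 0.34 (SE 0.08), and Myh11, the smooth muscle myosin, by 0.37 (SE 0.13) and 0.57 (SE 0.24). Pecam1, an endothelial adhesion molecule, differed by -0.13 (SE 0.05) and -0.12 (SE 0.08). In sham hearts an unadjusted p under 0.05 was held by 1 of 12 fibroblast markers (8.33%, against 6.74% of all genes). It was held by 1 of 11 smooth muscle and pericyte markers (9.09%) and 1 of 12 endothelial markers (8.33%). Positive differences numbered 7 of 12, 7 of 11 and 4 of 12 in these lists. Serping1, the inhibitor of the first complement component, differed by 0.30 (SE 0.08) in sham hearts and by 0.06 (SE 0.11) in MCAO hearts. In sham hearts 12 of 13 complement genes were positive, beside 47.6% of all genes, with a median of 0.15 (0.0699 to 0.255 with 1 array left out). Only 1 of the 13 (7.69%, against 6.74% of all genes) had an unadjusted p under 0.05. The array means of the complement list overlapped, from 5.49 to 5.93 at 24 h and from 5.78 to 6.20 at 72 h. Inmt, a methyltransferase gene named after its values were seen, ran from 4.09 to 4.75 at 24 h and from 4.83 to 7.12 at 72 h in sham hearts, and differed by 1.10 (SE 0.31) there and by 1.55 (SE 0.34) in MCAO hearts.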
